A study of Mus musculus with 2 samples.

Results

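CDK inhibitors, pocket proteins and cyclin D1 decide in many cell types whether a cell in G1 starts DNA replication, and 10 mouse genes of this circuit were followed here. They were chosen by name, with earlier results of these data known. The list holds Cdkn1a, Cdkn1b and Cdkn1c of the CIP/KIP family and Cdkn2a, Cdkn2b, Cdkn2c and Cdkn2d of the INK4 family. It also holds the pocket protein genes Rbl1 and Rbl2 and the cyclin gene Ccnd1. Of the 10, 9 had a row among the 18724 genes of the deposited table, and the expression of Cdkn2a was not analysed here. The data were 1 library of label-retaining luminal cells and 1 library of non-label-retaining luminal cells, both sorted fresh by flow cytometry from normal prostate of mice of 18 weeks, as GFP+ and GFP- luminal cells. The label is a fusion of GFP to histone 2B, and cells that rarely divide keep more of it, because each division dilutes it. The labels give no mouse strain, driver of the transgene, length of chase or number of animals per sort, which limits what each library stands for. No treatment or castration is named for these libraries.

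Cyclin D1, with its kinases CDK4 and CDK6, phosphorylates the pocket proteins, which otherwise hold E2F factors and keep S-phase genes silent. INK4 proteins bind CDK4 and CDK6 and keep the D cyclins from joining them, whereas CIP/KIP proteins bind whole cyclin-CDK complexes and above all inhibit CDK2. The pocket proteins p107 (Rbl1) and p130 (Rbl2) bind the repressor E2Fs, and in quiescent cells p130 joins the MuvB core to form the DREAM complex. Prostate luminal cells divide slowly in the adult, and loss of p27, the product of Cdkn1b, is known to enlarge the mouse prostate.

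The libraries held 50689229 reads (label-retaining) and 48334265 reads (non-retaining). With 1 library per group there was no replicate check, no test and no p-value between the groups, and intervals below cover counting error only. A gene was measured when its mean normalised count was at least 10, which kept 17183 genes. It was called higher or lower when its log2 ratio, label-retaining over non-retaining, was at least 1 or at most -1 and the exact 95% counting interval excluded equality. The luminal markers Krt8 and Krt18 were abundant in both libraries, with 148223 and 92019 reads in the label-retaining library and 89295 and 63881 reads in the non-retaining library. The basal marker Krt5 had 962 reads in label-retaining cells, against 28725 in non-retaining cells, so basal RNA was present under the luminal label.

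Of the 9 measured genes, 2 were called lower in label-retaining cells, 0 were called higher and 7 were not called. The genes called lower were Cdkn1c, 4.55-fold, and Ccnd1, 3.04-fold. Over all measured genes 19.4% were called lower and 14.5% higher, 33.8% in either direction, so that 2 of 9 (22.2%) is near the background and is no result about the circuit as a group. Their median log2 ratio was -0.23, beside -0.0052 over all measured genes. Fewer cells of a type and less RNA per cell cannot be told apart in such bulk samples.

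**Figure D1:**
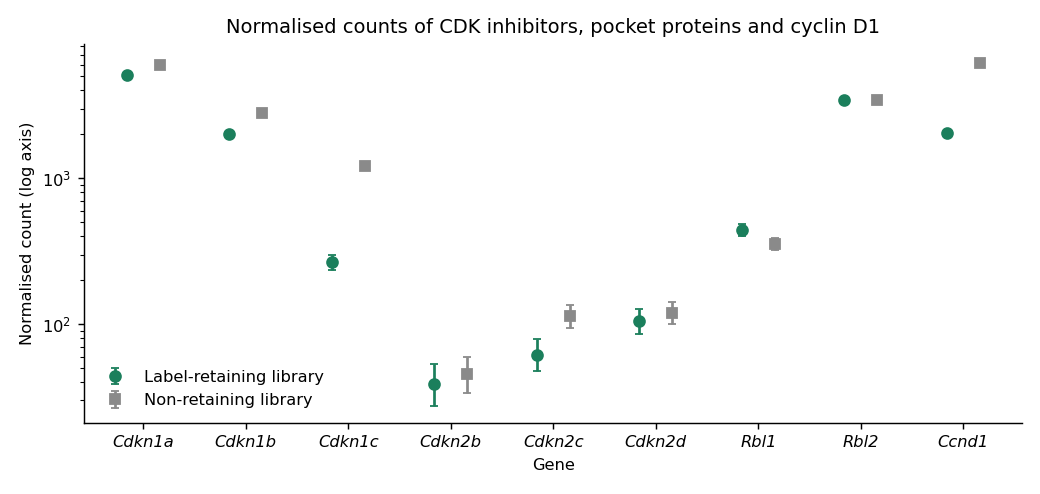
Normalised counts (log axis) of the 9 genes in the label-retaining library (circles) and the non-retaining library (squares), with exact 95% counting intervals. Cdkn1c and Ccnd1 stand apart between the libraries, Rbl2 is level at 3432 and 3435 normalised counts, and the INK4 genes lie between 38.9 and 120.1.

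Among the CIP/KIP genes, Cdkn1c was the one that was called. Cdkn1c encodes p57, an imprinted inhibitor that is expressed from the maternal allele and is linked to quiescence of several stem cell types. It had 265 normalised counts (266 reads) in the label-retaining library, against 1209 (1329 reads) in the non-retaining library, a log2 ratio of -2.19 (interval -2.38 to -2.00). The label-retaining library was the low one, and only 8.61% of measured genes had a lower log2 ratio. The gene lies on chromosome 7, 143458339 to 143461050, minus strand (GRCm38), and 625 bases of its exons overlap those of an antisense gene, Gm44732. Since it is not given whether reads were counted by strand, reads of the pair cannot be told apart.

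Cdkn1a and Cdkn1b, the more abundant CIP/KIP genes, were under 2-fold apart. Cdkn1a, which encodes the p53-induced inhibitor p21, had 5082 normalised counts in label-retaining cells and 5978 in non-retaining cells (log2 ratio -0.23, interval -0.29 to -0.18), and 273 bases of its exons overlap those of AC167363.2 on the opposite strand. Cdkn1b, which encodes p27, had 2019.7 normalised counts in label-retaining cells and 2812 in non-retaining cells (-0.48, -0.56 to -0.40). Both were lower in the label-retaining library beyond counting error, but how far 2 libraries of 1 group would differ is not known here. Within the CIP/KIP family, Cdkn1c held 3.60% of the reads in label-retaining cells (Clopper-Pearson 95% interval 3.19% to 4.05%) and 12.1% in non-retaining cells (11.5% to 12.7%). Cdkn1a held 69.0% (67.9% to 70.0%) and 59.8% (58.9% to 60.7%) in the same order of libraries, and Cdkn1b 27.4% (26.4% to 28.4%) and 28.1% (27.3% to 29.0%). These shares do not depend on the scaling between the libraries, and by them p57 took a smaller part of the family in label-retaining cells while the intervals of the p27 shares overlapped.

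The upstream Cdkn1a promoter is printed because Cdkn1a is the one gene of the circuit with a p53 element among the promoters searched, and the p53 target genes are described further on. Sequences are from RefSeq (GRCm38.p6), run 5′ to 3′ on the gene's strand and reach from 250 bases before to 50 after a transcription start. They were found for 8 of the 10 genes, Cdkn2a included, not for Cdkn1c or Ccnd1. Capitals mark a p53 element, a pair of adjoining decamers of the p53 consensus with at most 1 mismatch. Such an element was found in 0.067% of 32851 promoters. The second line is the one other promoter among the p53 list that held it, Ccng1 (cyclin G1), with 20 bases on each side.
Cdkn1a (chr17:29090729-29091028, plus strand): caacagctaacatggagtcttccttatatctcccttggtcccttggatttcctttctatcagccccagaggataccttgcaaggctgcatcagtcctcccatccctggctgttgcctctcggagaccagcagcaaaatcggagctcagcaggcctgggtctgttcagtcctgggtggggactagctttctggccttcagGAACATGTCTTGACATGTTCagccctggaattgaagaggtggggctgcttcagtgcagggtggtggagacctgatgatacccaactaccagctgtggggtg
Ccng1 (chr11:40755442-40755501, minus strand): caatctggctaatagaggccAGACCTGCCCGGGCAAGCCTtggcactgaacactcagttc
Both genes were well under 2-fold apart between the libraries, in opposite directions and beyond counting error. Ccng1 had 5867 normalised counts in label-retaining cells and 5458 in non-retaining cells, a log2 ratio of 0.10 (0.05 to 0.16), against the -0.23 of Cdkn1a. A motif match is a description of the letters and not evidence of binding.

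The INK4 genes were scarce, and none of the 3 measured was called. Cdkn2b, which encodes p15, a TGF-beta-induced inhibitor, had 38.9 normalised counts (39 reads) in label-retaining cells and 45.5 (50 reads) in non-retaining cells. Its log2 ratio was -0.22 with an interval of -0.87 to 0.41, so a difference was not detectable at this depth. Cdkn2d, which encodes p19 of the INK4 family, had 105 normalised counts in label-retaining cells and 120.1 in non-retaining cells (-0.20, -0.58 to 0.18), which likewise holds equality. Cdkn2c, which encodes p18, had 61.9 normalised counts in label-retaining cells and 113.7 in non-retaining cells (-0.87, -1.34 to -0.43). It was lower beyond counting error and just short of the 2-fold threshold, and it was called lower when the libraries were scaled by total reads (-1.07). Summed per kilobase of exon, the CIP/KIP genes stood 17.0-fold above these INK4 genes in label-retaining cells and 19.1-fold above them in non-retaining cells.

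Neither pocket protein gene was called, and Rbl2 lay nearest to equality of the 9 genes under the deposited scaling. Rbl2 had 3432 normalised counts in label-retaining cells and 3435 in non-retaining cells, a log2 ratio of -0.0013 (-0.07 to 0.07). The interval leaves room for little difference between these libraries under the deposited scaling. With total-read scaling the Rbl2 ratio was -0.20 (-0.27 to -0.14), and with Krt8 and Krt18 set equal it was -0.76 (-0.83 to -0.70). Its equality thus rests on the scaling. Of the Rbl2 exons, 892 bases overlap those of Gm45464 on the opposite strand and 693 those of Aktip, also opposite, which had 3075 reads in label-retaining cells and 1482 in non-retaining cells. Rbl1 had 440.1 normalised counts in label-retaining cells and 355 in non-retaining cells (0.31, 0.11 to 0.51). It was the highest ratio of the 9, but it was 0.11 with total-read scaling and turned to -0.45 when the luminal keratins Krt8 and Krt18 were set equal. Rb1, the third pocket protein gene, was at 1033 normalised counts in label-retaining cells and 1687 in non-retaining cells (-0.71, -0.82 to -0.60). Of the reads of the 3 pocket protein genes, Rbl2 held 70.0% in label-retaining cells (68.7% to 71.2%) and 62.7% in non-retaining cells (61.5% to 63.9%), and Rb1 held 21.1% (19.9% to 22.2%) and 30.8% (29.6% to 32.0%).

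**Figure D2:**
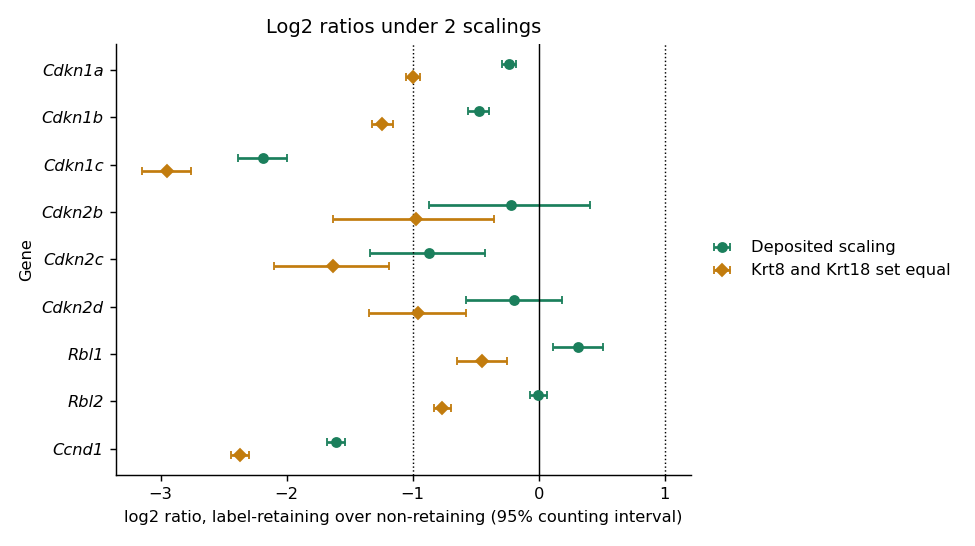
Log2 ratios (label-retaining over non-retaining) of the 9 genes with 95% counting intervals, under the deposited scaling (circles) and with Krt8 and Krt18 set equal (diamonds). Dotted lines mark 2-fold. Under the deposited scaling Cdkn1c (-2.19) and Ccnd1 (-1.61) lie beyond 2-fold, and the keratin scaling moves each ratio down by the same shift and also takes Cdkn1b and Cdkn2c past the line.

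Ccnd1, the D-type cyclin that growth factor signals induce, was the second gene called. It had 2034 normalised counts (2038 reads) in label-retaining cells, against 6192 (6807 reads) in non-retaining cells, a log2 ratio of -1.61 (-1.68 to -1.53). The label-retaining library was again the low one. Ccnd1 lies on chromosome 7, 144929931 to 144939925, minus strand, and 1100 bases of its exons overlap those of LTO1 on the opposite strand. LTO1 had 611 reads in label-retaining cells and 427 in non-retaining cells, fewer than Ccnd1 in both.

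The other D cyclins split. Ccnd2 was called lower, with 931 normalised counts in label-retaining cells and 5693 in non-retaining cells (-2.61, -2.71 to -2.51). Ccnd3 was not called, with 1537 in label-retaining cells and 1749 in non-retaining cells (-0.19, -0.28 to -0.09). Ccnd1 kept nearly the same share of all D-cyclin reads, 45.2% in label-retaining cells (43.7% to 46.6%) and 45.4% in non-retaining cells (44.6% to 46.2%). Ccnd2 held 20.7% (19.5% to 21.9%) in label-retaining cells and 41.8% (41.0% to 42.5%) in non-retaining cells, and Ccnd3 34.1% (32.8% to 35.5%) and 12.8% (12.3% to 13.4%). Per kilobase, the summed D cyclins were at 706 in label-retaining cells and 2119 in non-retaining cells, and the ratio of D cyclins to CIP/KIP genes was 0.35 and 0.73 in the same order. Per-kilobase values use the merged exon length of each gene and are normalised counts.

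Ordered by level per kilobase of exon, Cdkn1a led in both libraries, at 1430.4 in label-retaining and 1683 in non-retaining cells. In label-retaining cells Rbl2 (454), Cdkn1b (444) and Ccnd1 (432) came next, with counting intervals in which each overlapped the next, followed by Cdkn1c (130.2), Rbl1 (73.4), Cdkn2d (66.6), Cdkn2b (28.0) and Cdkn2c (23.0). In non-retaining cells Ccnd1 was the second gene at 1315 per kilobase, followed by Cdkn1b (618) and Cdkn1c (593), whose intervals overlapped. Rbl2 (454), Cdkn2d (76.3), Rbl1 (59.2), Cdkn2c (42.3) and Cdkn2b (32.7) came after them. The intervals of Rbl1 and Cdkn2d overlapped in both libraries, as did those of Cdkn2b and Cdkn2c, so their order is not settled. Ccnd1 thus stood at 0.97 of the Cdkn1b level in label-retaining cells and at 2.13 of it in non-retaining cells, and at 0.30 and 0.78 of the Cdkn1a level. Among all measured genes, Cdkn1c was above 53.4% by level per kilobase in label-retaining cells and above 82.7% in non-retaining cells, and Ccnd1 above 76.5% and 92.3%.

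**Figure D3:**
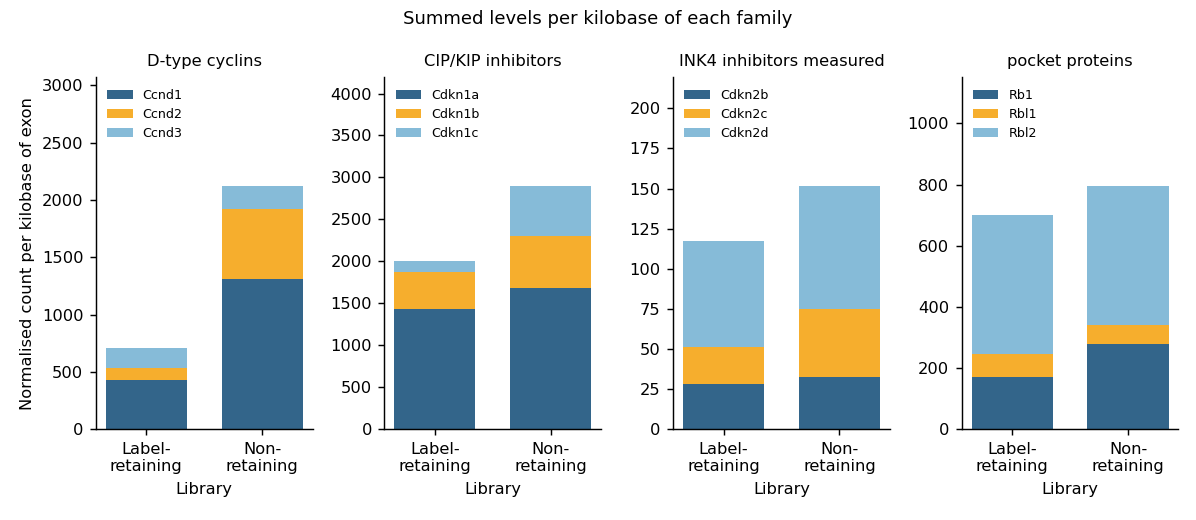
Levels per kilobase of exon, as normalised counts, stacked by gene for the D cyclins, the CIP/KIP inhibitors, the 3 measured INK4 inhibitors and the pocket proteins (with Rb1), label-retaining library left and non-retaining library right. The D cyclins sum to 706 and 2119, whereas the pocket proteins sum to 699 and 794.

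Many markers of other cells were lower along with Cdkn1c and Ccnd1, and some were higher. All 10 basal markers were called lower in label-retaining cells, with summed normalised counts of 19085 in label-retaining and 318486 in non-retaining cells, and none was at 0 in either library. Of 10 smooth muscle and fibroblast markers, 7 were lower and 2 higher, with sums of 13882 in label-retaining and 100129 in non-retaining cells. Dcn alone made up 4920 and 83927 of these sums. The 2 higher were Col1a1 (1.06) and Lum (1.53), and Col3a1 (0.97) was just under 2-fold. Leukocyte markers were lower in 6 of 10 and higher in 1, with sums of 1063 and 14950, and Gzma was at 0 reads in the label-retaining library. Endothelial markers were lower in 5 of 8 and higher in 0, with sums of 739 and 2617. Luminal markers were higher in 4 of 10 and lower in 0, with sums of 823427 in label-retaining and 336236 in non-retaining cells. All 6 measured seminal vesicle markers were higher, with sums over the 7 found of 83926 and 765, and Svs3a, Svs6 and Pax2 were at 0 reads in non-retaining cells. The part of any of these cells in the differences of Cdkn1c, Ccnd1 or Ccnd2 was not tested.

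Of the list of 11 G1 cyclins and kinases, 1 was lower (Ccnd2) and 1 higher, with a median log2 ratio of -0.19. That is 18.2% called, against 33.8% over all measured genes. The higher one was Cdc25a, the phosphatase that activates CDK2, with 1816 normalised counts in label-retaining cells and 823 in non-retaining cells (1.14, 1.03 to 1.26). Cdk4, the most abundant of the list per kilobase, was at 2042 in label-retaining cells and 2259.6 in non-retaining cells (-0.15, -0.23 to -0.06). Cdk6 was at 1200.5 and 2019 in the same order (-0.75). None of the 10 E2F and DP genes was called, against the same 33.8% (median 0.05). Their most abundant gene was E2f4, a repressor E2F that binds p107 and p130, at 1918 normalised counts in label-retaining and 1818 in non-retaining cells (0.08, -0.01 to 0.17). Of 10 genes for Rb and the DREAM complex, 1 was called, lower: Lin9, a MuvB subunit, at 77.8 in label-retaining and 238 in non-retaining cells (-1.61, -2.00 to -1.24). Dyrk1a, the kinase that promotes DREAM assembly and the most abundant of that list, was at -0.26.

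The S-phase genes that E2F controls were the list with the largest share of calls among the 8 pathway lists, 10 of 18 lower and 0 higher (55.6%, against 19.4% lower over all measured genes), with a median of -1.11. Cdt1, a licensing factor, had 236 normalised counts in label-retaining cells and 806 in non-retaining cells (-1.77). Pola1, the DNA polymerase alpha subunit, had 225 in label-retaining cells and 767 in non-retaining cells (-1.77). The helicase genes Mcm3 (-1.72), Mcm5 (-1.66), Mcm6 (-1.36), Mcm4 (-1.31) and Mcm7 (-1.13), the clamp gene Pcna (-1.15) and Rrm1 of ribonucleotide reductase (-1.08) were also lower. Pcna was the most abundant of the list per kilobase. Mki67, Ccna2 and Cdk1, which mark cycling cells and later phases, were not called, at -0.73, -0.35 and 0.19. The other S-phase genes Rrm2 (-0.73), Tyms (-0.28), Mcm2 (-0.24), Tk1 (0.29) and Cdc6 (0.40) were not called either. The summed levels of the basal, leukocyte, and smooth muscle and fibroblast markers, given above, were lower in label-retaining cells as well. The smooth muscle and fibroblast sum was lower mostly through Dcn. The part of these cells in the S-phase differences was not tested.

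Rbl1 is itself a gene with an E2F motif at its start, as the promoter shows. The motifs searched were TTTCGCGC and TTTGGCGC on either strand, which can overlap each other, and 0.81% of all promoters held at least 1. Of the 8 genes of the circuit with a promoter sequence, Cdkn2a among them, Rbl1 alone held it, 18 bases before the start. All 8 held the Sp1-type GC box GGGCGG in at least 1 promoter. The upstream Cdkn1a promoter and 1 Cdkn2c promoter lacked the GC box, which 35.7% of all single promoters held.
Rbl1 (chr2:157204485-157204784, minus strand): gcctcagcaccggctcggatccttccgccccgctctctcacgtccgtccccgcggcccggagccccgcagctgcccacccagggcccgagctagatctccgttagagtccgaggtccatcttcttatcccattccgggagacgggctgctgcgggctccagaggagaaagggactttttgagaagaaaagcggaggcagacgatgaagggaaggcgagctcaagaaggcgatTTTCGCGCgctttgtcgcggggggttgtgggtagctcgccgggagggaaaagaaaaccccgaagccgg
The same motifs were found in 7 of the 15 S-phase genes with a promoter sequence, and their windows are given to set them beside Rbl1, with the motif in capitals and up to 20 bases on each side.
Mcm3 (chr1:20820263-20820294, minus strand): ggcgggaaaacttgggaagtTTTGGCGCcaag
Mcm5 (chr8:75109336-75109387, plus strand): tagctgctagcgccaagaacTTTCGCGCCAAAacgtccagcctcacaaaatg
Mcm6 (chr1:128359788-128359835, minus strand): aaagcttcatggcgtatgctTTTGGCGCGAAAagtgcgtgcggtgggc
Mcm7 (chr5:138171840-138171887, minus strand): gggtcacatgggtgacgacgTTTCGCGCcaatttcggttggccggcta
Cdt1 (chr8:122568027-122568064, plus strand): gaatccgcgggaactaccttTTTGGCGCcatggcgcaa
Pola1 (chrX:93632266-93632313, minus strand): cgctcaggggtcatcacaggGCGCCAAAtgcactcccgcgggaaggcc
Cdk1 (chr10:69353016-69353063, minus strand): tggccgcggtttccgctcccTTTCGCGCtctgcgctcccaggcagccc
Of these 7 genes, 6 were called lower and Cdk1 was not, and of the 8 S-phase genes without the motif in their windows 2 were called lower. Rbl1, with the same motif, was at 0.31 and not called. These counts describe the letters of the promoters beside the ratios and carry no test.

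The p53 list had 6 lower and 1 higher gene of 18, with a median of -0.16. That is 38.9% called, near the 33.8% over all measured genes, with 33.3% lower against 19.4%. Trp53 itself, the gene of p53, was at 1645 normalised counts in label-retaining cells and 3343 in non-retaining cells (-1.02, -1.11 to -0.94). Sesn1, a stress-induced sestrin, was the lowest, at 411 in label-retaining cells and 2667 in non-retaining cells (-2.70, -2.85 to -2.55). Plk2 (-2.06), a polo-like kinase, Phlda3 (-1.89), which restrains AKT, Pmaip1 (-1.48), which encodes NOXA, and Tigar (-1.02), a regulator of glycolysis, were also lower. Zmat3, an RNA-binding p53 target, was higher, at 829 in label-retaining cells and 308 in non-retaining cells (1.43, 1.24 to 1.61). Cdkn1a, at -0.23, lay with the genes that were not called, among them Mdm2 (0.38), Bax (0.20), Ccng1 (0.10) and the most abundant of the list, Gadd45a (0.33). Sesn2 (-0.70), Btg2 (-0.31), Mdm4 (-0.18) and Eda2r (-0.15) were uncalled with negative ratios like Cdkn1a, and the other uncalled genes of the list had positive ratios.

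**Figure D4:**
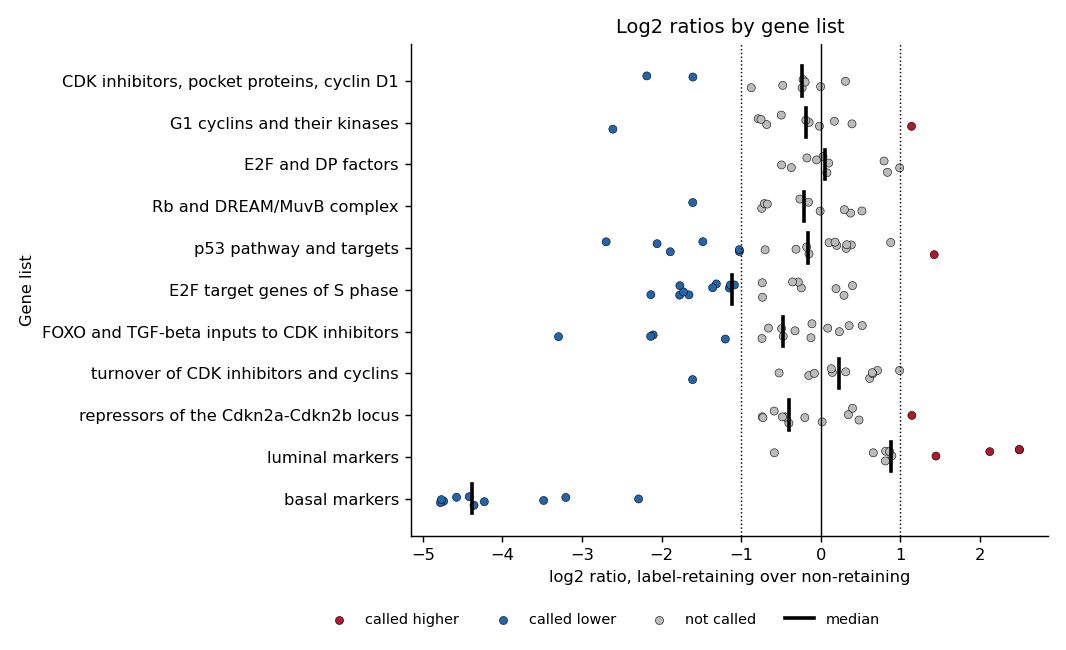
Log2 ratios (label-retaining over non-retaining) of each measured gene by list, coloured by call, with the list's median as a bar and dotted lines at 2-fold. Of the 11 lists plotted, the basal markers (median -4.39) and the E2F target genes of S phase (-1.11) have the lowest medians, and the E2F and DP factors are centred at 0.05.

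Of 15 genes of FOXO and TGF-beta input to the inhibitors, 4 were lower and 0 higher (median -0.47). The 26.7% lower is near the 19.4% over all measured genes. TGF-beta signals induce Cdkn2b and Cdkn1a in epithelial cells, and the ligand gene Tgfb1 was at 339 normalised counts in label-retaining cells and 3333 in non-retaining cells (-3.29, -3.46 to -3.14). Its receptor gene Tgfbr2 was at -2.14 and the ligand gene Tgfb3 at -2.11. Foxo1, a factor that induces Cdkn1b, was lower, at 2203 and 5059 (-1.20, -1.27 to -1.13), whereas Foxo3 (-0.49) and Foxo4 (0.09) were not called. Myc, which represses Cdkn1a and Cdkn2b and was the most abundant of the list, was at 0.23. Basal markers were lower too, as given above. Of the 10 smooth muscle and fibroblast markers 7 were lower, but Col1a1 (1.06) and Lum (1.53) were higher. The part of such cells was not tested.

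Genes that act on the stability of the inhibitors or on the INK4 locus form lists with 8.33% and 7.69% of their members called, against 33.8% over all measured genes. Of 12 turnover genes 1 was lower, Dtl, the CUL4 receptor that targets p21 and CDT1, at 56.9 normalised counts in label-retaining cells and 175 in non-retaining cells (-1.61, -2.07 to -1.19). Skp2, which marks p27 for degradation, had 83 reads in both libraries (0.13, -0.32 to 0.59), and its cofactor gene Cks1b was at 0.99, just under 2-fold. Ddb1, the adaptor of the CUL4 ligase and the most abundant gene, was at 0.71. Of 13 repressors of the Cdkn2a-Cdkn2b locus, 1 was called, higher: Id1, also the most abundant of its list, at 5229.9 in label-retaining cells and 2364 in non-retaining cells (1.15, 1.08 to 1.21). The Polycomb genes Bmi1 (0.40) and Ezh2 (-0.48) were not called. Over all 8 lists, 23 of 107 genes were lower (21.5%, near the 19.4% over all measured genes). Only 3 were higher, where 14.5% of all measured genes were. In either direction 24.3% were called, under the 33.8% over all measured genes. With Krt8 and Krt18 set equal 53 were lower and 0 higher, 49.5% called, against 45.8% called over all measured genes.

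None of the nearest measured genes beside Cdkn1c on chromosome 7 was called lower. The 3 nearest measured genes on each side gave 1 higher, 0 lower and 5 not called. Kcnq1ot1, the paternally expressed antisense RNA of this imprinted domain, had 6696 reads in label-retaining cells and 4689 in non-retaining cells (0.65, 0.59 to 0.70). Phlda2, which is maternally expressed like Cdkn1c, was higher, with 805 reads in label-retaining cells and 373 in non-retaining cells (1.24, 1.06 to 1.42). Kcnq1 was at 0.93, Slc22a18 at 0.35 and Nap1l4 at -0.05. With Krt8 and Krt18 set equal, each of these ratios is smaller by the same shift of 0.76, which puts Kcnq1ot1 and Slc22a18 below equality. Beside Ccnd1, 0 of 5 measured neighbours were called lower and 1 higher, Mrgprf at 2.11, a gene 371 kb away. Over all 9 genes, 7 of 53 neighbours were lower and 12 higher. Among all measured genes 19.4% were lower and 14.5% higher. Few or no lower calls are thus common in so few neighbours and are no result about the surroundings of Cdkn1c or Ccnd1.

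**Figure D5:**
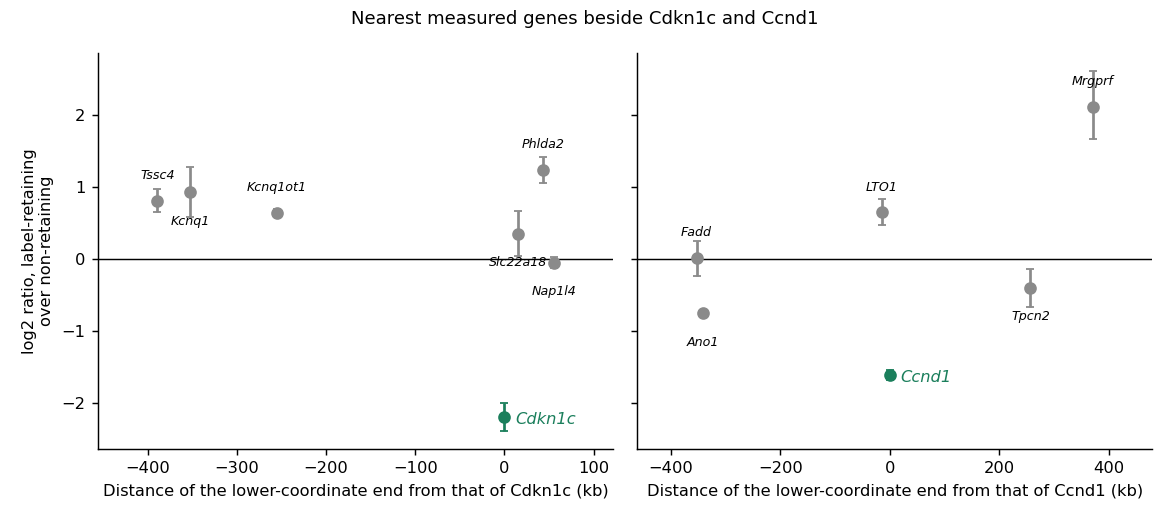
Log2 ratios (label-retaining over non-retaining) of the nearest measured genes on each side of Cdkn1c and Ccnd1, against distance in kilobases, with 95% counting intervals. Cdkn1c (-2.19) and Ccnd1 (-1.61) lie under every neighbour shown.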

How the data were processed

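Per the labels' protocols, the libraries of both sorted luminal populations came from RNeasy-extracted RNA and a stranded TruSeq kit for total RNA. The deposited values were a normalised signal: read counts per gene after the authors' division by a library size factor, as the values show. In each column 100% of values were whole multiples of a single step, within 1e-06 of a read, and the factors were 1.00 (label-retaining cells) and 1.10 (non-retaining cells). Per the submitters' processing notes, the tools included HTSeq 0.6.0, TopHat2 2.0.10, DESeq 1.16.0, CASAVA 1.8.2 and Bowtie2 2.1.0, with genome build mm10, in no stated role. The annotation and the strand setting of the counting are not named there.

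Reads were recovered by dividing by the step. Symbols and merged exons came from GENCODE M21 (GRCm38, the same assembly as mm10), which named 18634 of 18724 rows. Log2 ratios used a pseudocount of 0.5 normalised counts and exact Clopper-Pearson intervals. The calculation was tested on simulated data with Python 3.11.15 and scipy 1.17.1. Alternatives were 4 other scalings (total reads, edgeR 4.0.16 TMM, DESeq2 1.42.0 size factors, and Krt8 and Krt18 set equal), a pseudocount of 5, no filter, a filter at 50 and a threshold of 1.5-fold.

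All 9 genes were to be named, and of each pathway list every called gene and the most abundant per kilobase, except 1 that is not reported here. Other genes were named after their values were seen: Ccnd3, Cdk6, Rb1, Foxo3, Foxo4, Skp2, Cks1b, Bmi1, Ezh2, Mdm2, Bax, Ccng1, Sesn2, Btg2, Mdm4, Eda2r, Mki67, Ccna2, Cdk1, Rrm2, Tyms, Mcm2, Tk1, Cdc6, the markers Dcn, Col1a1, Col3a1 and Lum, and the neighbours of Cdkn1c and Ccnd1. No genes of like pattern were sought, since 2 libraries give each gene 1 ratio. The members, lists and motifs were chosen with earlier results of these data known.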

Additional observations from a re-analysis of the deposited data

How the results depend on the processing

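The 8 alternatives were weak tests of the Cdkn1c and Ccnd1 calls, because none moved these ratios far toward equality. Dropping the filter or using a threshold of 1.5-fold can only loosen the rule. The stricter filter and the pseudocount of 5 matter little at the counts of these genes. TMM and median-of-ratios scaling moved ratios up by only 0.006 and 0.013, and the other scalings moved them down. Cdkn1c and Ccnd1 were called lower under the deposited scaling and all 8 alternatives. Their log2 ratios were as low as -2.95 and -2.37 when Krt8 and Krt18 were set equal. That scaling moved every ratio down by 0.76 and the median of all measured genes to -0.78. It gave 4 of the 9 genes lower (44.4%, with Cdkn1b at -1.24 and Cdkn2c at -1.63 in addition) and 53 of 107 pathway genes lower (49.5%). Over all measured genes it gave 923 higher and 6984 lower (45.8% called), against 2483 and 3330 (33.8% called) as deposited. Scaling by total reads moved ratios by -0.20 and gave 3 of the 9 lower (33.3%, Cdkn2c in addition). Over all measured genes it gave 1917 higher and 4001 lower (34.4% called). The TMM and median-of-ratios scalings, the pseudocount of 5 and both filters left the same 2 genes called. A threshold of 1.5-fold gave 3 of the 9 genes (33.3%, Cdkn2c in addition) and 49 pathway genes (45.8%), against 8759 genes in all (51.0%). Under each of these settings the called share of the 9 genes was no higher than that of all measured genes. No paired analysis was possible because each group had 1 library. Depth limits Cdkn2b, Cdkn2c and Cdkn2d, with 39 to 132 reads.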
